A study of Mus musculus with 2 samples.

Results

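The Mir466, Mir467, Mir669 and Mir297 families are groups of mouse microRNA precursor genes that are closely related in sequence and present in many copies. Their members were taken as the rows of the array table that the platform annotation gives exactly 1 gene symbol, where that symbol begins with one of these family names, and where a symbol had more than 1 row the brightest was kept (highest mean of both arrays). There were 76 such symbols among 30145 genes with 1 symbol: 27 of Mir466, 30 of Mir669, 15 of Mir467 and 4 of Mir297. They stood in 87 rows, and 11 symbols had 2 rows each. A further 6 rows were annotated to a member together with another symbol and were not counted.

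MicroRNA genes are transcribed as long primary transcripts, from which the nuclear enzyme Drosha cuts a hairpin precursor and the cytoplasmic enzyme Dicer1 then releases the short mature microRNA. The mature strand guides Argonaute proteins to messenger RNAs, chiefly through its seed, the bases 2 to 8. Most copies of these families lie in a large cluster inside an intron of Sfmbt2, a Polycomb-related gene on chromosome 2 that is imprinted in extraembryonic tissue, and the host transcript is their presumed precursor. A row of the array is named after the precursor gene and gives no separate reading of the mature strand.

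The study compared intestinal stem cells with and without circPan3, a circular RNA of the Pan3 locus. The 2 groups were circPan3+/+;Lgr5GFP-CreERT2 and circPan3-/-;Lgr5GFP-CreERT2, so the allele that marks Lgr5-expressing cells was also present in the control. Cells came from the small intestine of mice aged 8 weeks, were sorted for Lgr5-GFP, and were profiled as total RNA on Affymetrix Clariom D arrays; the labels do not say how many mice contributed. With 1 array per genotype no value has an error, no difference could be tested, and every statement is about this pair of arrays, not about the genotypes at large.

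All values are log2 RMA signals and all differences are circPan3-/- minus circPan3+/+. Over all 30145 genes the median difference was 0.21, and each difference below is to be read against that shift. The limit of measurement was the 95th percentile of 5222 negative control rows, at 5.06 for circPan3+/+ and 5.56 for circPan3-/-; values below it were within the bulk of the controls. Ties between rows were common in the circPan3+/+ column (69.1% of rows) and rare in the circPan3-/- column (4.20%), and the reason was not tested.

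The labelled cell type was checked against markers. The 4 epithelial markers (Epcam, Krt8, Cdh1 and Vil1) lay above both limits. Lgr5, the gene used for the sort, had 10.91 on the circPan3+/+ and 7.02 on the circPan3-/- array, and Olfm4 had 11.53 and 10.28, while Ascl2 and Smoc2 lay under both limits. Of 11 measured markers of immune, endothelial and mesenchymal cells, the 5 immune ones ranged from 4.92 to 10.55 and from 4.21 to 10.51, the 3 endothelial ones from 5.66 to 6.78 and from 3.90 to 5.48, and the 3 mesenchymal ones from 3.93 to 8.91 and from 4.01 to 7.16. Cd68 (immune), Emcn (endothelial) and Vim (mesenchymal) were at least 2-fold lower on the circPan3-/- array, while Kdr (endothelial) had 6.03 and 4.31, a bound of 1.39-fold. The rest of the 11, Ptprc, Cd3e, Cd79a, Lyz2, Pecam1, Col1a1 and Col1a2, had differences from -0.19 to 0.08. Of these, Lyz2 alone lay above both limits, and Ptprc and Pecam1 above that of the circPan3+/+ array alone. Cd3e, Cd79a, Col1a1 and Col1a2 lay under both, so they have no fold. The markers of differentiated epithelium differed as well. The 3 enterocyte markers were lower: Fabp1 had 7.59 and 5.23, Apoa4 8.55 and 6.05, and Alpi 7.89 and 6.63. The 3 Paneth markers (Lyz1, Mmp7 and Ang4) ranged from 6.56 to 10.15 on the circPan3+/+ and from 8.45 to 11.63 on the circPan3-/- array, with differences of 1.49 to 3.37. The 2 measured goblet markers were higher too, Tff3 by 1.51 and Clca1 by 3.27. The members described below that were lower were lower on the same array as Lgr5, Olfm4, the enterocyte markers, Cd68, Emcn, Vim and Kdr. Among the other non-epithelial markers, only Lyz2 was measured above both limits, with a difference of -0.03. What part cells of any of these types had in the result was not tested.

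RefSeq sequences (GRCm38.p6) matched 8 of the 76 symbols, 7 of them with a mature strand. These are shown because they share runs of alternating U and G or A and C. Members were chosen by family name and not by these runs. Because the families are closely related in sequence, the runs are not independent of that choice. Capitals mark the seed.
Mir466k: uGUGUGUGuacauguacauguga
Mir466j: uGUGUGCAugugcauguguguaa
Mir466i: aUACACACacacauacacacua
Mir467h: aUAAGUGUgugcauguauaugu
Mir467f: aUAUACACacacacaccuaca
Mir467g: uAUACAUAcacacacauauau
Mir669n: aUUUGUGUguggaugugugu
The 7 seeds differed from each other. Only the seed of Mir467h was found in another of the 1730 other mature strands of the table, that of Mir668. The remaining members had no mature strand in the table, so whether they share these seeds could not be seen. As a measure of the runs, the share of bases inside a 4-base word was taken, the words being UGUG and its other phase GUGU, together with ACAC and its other phase CACA; words may overlap, and the strand as printed was searched, which for these words and their complements is the same as searching both. Mir466i had 77.3% of its bases within such words, Mir466j 73.9%, Mir669n 75%, Mir467f 57.1%, Mir466k 56.5%, Mir467g 42.9% and Mir467h 31.8%.

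Hairpins of 3 members follow, with the mature strand in capitals where the table gives one; that of Mir297-1 is shown as the one with the fewest runs of the 4 in the table. The hairpin of Mir466k lies on the plus strand at chr3:85467377-85467498, that of Mir669n on the plus strand at chr3:115979902-115979955, and that of Mir297-1 on the minus strand at chr7:10958437-10958512.
Mir466k hairpin: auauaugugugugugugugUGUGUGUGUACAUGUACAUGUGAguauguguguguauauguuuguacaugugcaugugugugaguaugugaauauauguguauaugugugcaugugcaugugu
Mir669n hairpin: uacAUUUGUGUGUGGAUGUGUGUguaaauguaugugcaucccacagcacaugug
Mir297-1 hairpin: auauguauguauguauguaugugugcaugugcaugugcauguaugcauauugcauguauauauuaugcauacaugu
The words covered 59% of the Mir466k hairpin, 61.1% of Mir669n and 39.7% of Mir467h, and 18.4% of Mir297-1. Among 1001 hairpins of other microRNAs the median was 5.81% and the 95th percentile 19.7%, and 338 held none; Mir297-1 thus lay below that percentile. The 4 hairpins held 36.9%, 42.6%, 33.9% and 31.6% G and C, against a median of 51.8% in the others.

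Most members were not measurable above the controls. On both arrays together, 62 of the 76 lay under the limits, 11 lay above both and 3 above that of the circPan3+/+ array alone; 0 were above that of the circPan3-/- array alone. The 11 are 14.5% of the members, where 15% of all genes with 1 symbol and 5.35% of the 523 other microRNA precursors were above both limits. By family, 6 of 27 Mir466 symbols, 2 of 15 Mir467 symbols, 3 of 30 Mir669 symbols and 0 of 4 Mir297 symbols were above both.

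**Figure D1:**
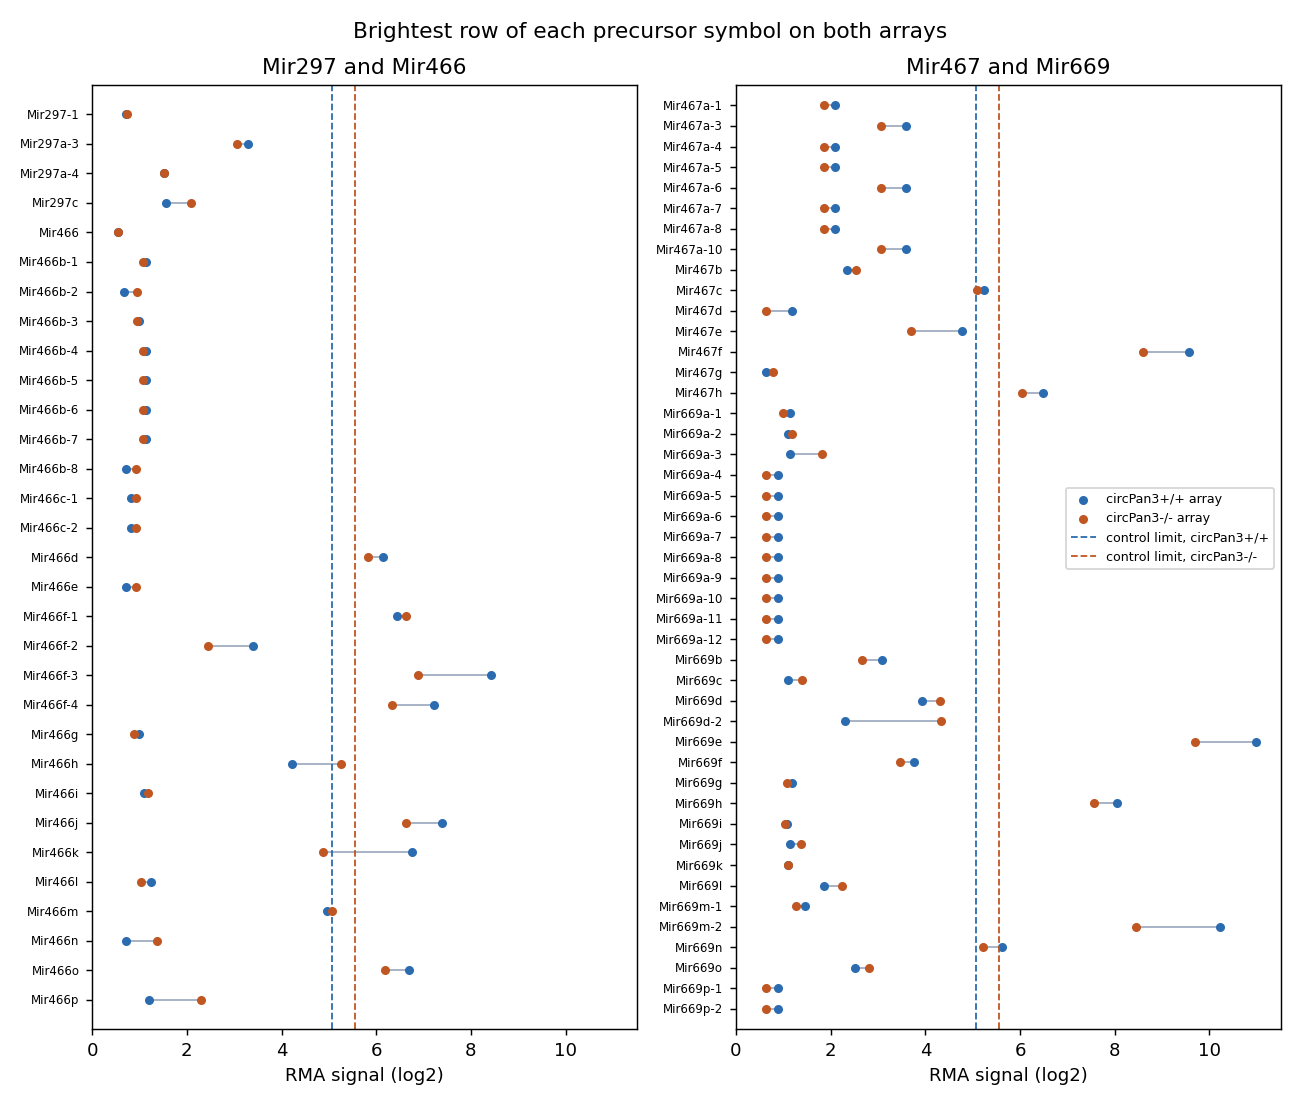
RMA signal (log2) of the brightest row of each of the 76 precursor symbols, with 1 point for the circPan3+/+ array, 1 for the circPan3-/- array and dashed lines at the control limits of 5.06 and 5.56. The reader should see that 62 symbols lie under both limits, and that of the 11 above both, 10 are lower on the circPan3-/- array.

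The members above the limits were mostly lower in circPan3-/- cells. Of the 11 above both limits, 10 had a difference below 0 and 1 above it, with a median of -0.78. Of these 10, 7 were read from rows that by their names lie away from the RefSeq locus of their symbol, as described below. With rows at the RefSeq place only, 6 symbols were above both limits, 4 lower and 2 higher. In pooled sorted cells, fewer cells of a type and less RNA per cell cannot be told apart. Of 4508 genes with 1 symbol above both limits 23.5% had a difference below 0, with a median of 0.42. Of the 28 other microRNA precursors above both limits 6 did (21.4%), with a median of 0.38.

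Counted by size over all 76 members, 5 were at least 2-fold lower (6.58%), 3 at least 2-fold higher (3.95%) and 68 neither. Over all genes with 1 symbol the shares were 2.74% lower and 5.98% higher, and over the other precursors 1.53% and 3.63%. Where a value under its limit is replaced by that limit, so that a fold is a lower bound, 4 members were at least 2-fold lower (5.26%) and 0 higher, against 0.826% and 2.04% of all genes and 0.191% in each direction of the other precursors; with rows at the RefSeq place only, 2 were lower. With all differences centred on the median of all genes, 8 members passed 2-fold downwards and 1 upwards, against 4.09% and 3.18% of all genes; with loess the counts were 9 and 2 (4.53% and 2.40% of all genes), and with quantile normalization 9 and 1 (4.40% and 2.64%). The median difference of the 76 members was -0.21, that of the other precursors 0.13. Of the 76 members, 51 were below 0 and 25 above, where 30.8% of all genes and 35% of the other precursors were below 0. Several symbols had the same values on both arrays, and with 1 symbol kept per such set, 32 of 55 were below 0 and 23 above, with a median of -0.11.

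The Mir669 family, with the largest number of symbols, had its 3 members above both limits all lower. Mir669m-2 had 10.22 on the circPan3+/+ and 8.45 on the circPan3-/- array, a difference of -1.77 or 3.41-fold. Mir669e had 10.97 and 9.69, a difference of -1.28 or 2.44-fold. Mir669h had 8.05 and 7.57, a difference of -0.48 that stayed under 2-fold. All 3 rows lie away from the locus of their symbol, as described below. Mir669n, whose row lies at its own locus on chromosome 3, had 5.62 and 5.23, with the second value under its limit, so that the bound is 1.04-fold. Over the 30 symbols the median difference was -0.25, which lies among the values of copies equal on both arrays; with 1 symbol per set of equal values it was -0.12 over 21. Under both limits lay 26 of the 30. At the other end stood Mir669d-2 with 2.30 and 4.34, a difference of 2.03, Mir669a-3 with 1.14 and 1.83, a difference of 0.68, and Mir669d with 3.92 and 4.31, a difference of 0.39. Both values of these 3 lay within the control range, so they have no fold.

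The Mir466 family had 6 members above both limits, 5 lower and 1 higher, and 1 above that of the circPan3+/+ array alone. The latter, Mir466k, at its own locus on chromosome 3, had 6.76 on the circPan3+/+ and 4.88 on the circPan3-/- array, a difference of -1.88. Because the second value lay under the limit, this is a bound of at least 2.30-fold. Mir466f-3 had 8.43 and 6.88, a difference of -1.55 or 2.93-fold. Mir466f-4, on chromosome 13, had 7.21 and 6.34, a difference of -0.87, and Mir466j, on chromosome 10, had 7.40 and 6.62, a difference of -0.78. Both were lower by less than 2-fold. Mir466o had 6.68 and 6.19, a difference of -0.49. Mir466d had 6.14 and 5.82, a difference of -0.31. The rows of Mir466f-3, Mir466o and Mir466d lie away from the locus of their symbol, as described below. The row of Mir466f-3 at that locus was above both limits and higher on the circPan3-/- array, with 6.01 and 6.76.

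Mir466f-1 was the single member above both limits that was higher in circPan3-/- cells, with 6.44 and 6.62, a difference of 0.18, close to the median of all genes; the sign turned with centring on all genes (-0.03), loess (-0.26) and quantile normalization (-0.14). Its second row, named for chromosome 19, had 5.56 and 6.42. Mir466f-2, by contrast, lay under both limits with 3.39 and 2.44, a difference of -0.95. The symbols with the highest differences of this family were Mir466p with 1.19 and 2.29, Mir466h with 4.22 and 5.25, and Mir466n with 0.71 and 1.36, all within the control range. Their differences were 1.10, 1.03 and 0.65. The family median over 27 symbols was -0.08, with 2 at least 2-fold lower and 2 at least 2-fold higher.

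In the Mir467 family, 13 of 15 symbols had a difference below 0 (30.8% of all genes), with a median of -0.23, which is the value of 5 equal copies of Mir467a. With 1 symbol per set of equal values, 7 of 9 were below 0, with a median of -0.44. Mir467f had 9.57 on the circPan3+/+ and 8.60 on the circPan3-/- array, a difference of -0.97 or 1.96-fold, just short of the 2-fold rule. Its row lies away from the locus of the symbol, as described below. Mir467h, at its own locus on chromosome 9, had 6.48 and 6.04, a difference of -0.44. Mir467c had 5.24 and 5.09, with the second value under its limit and no fold. Mir467e, under both limits, had 4.78 and 3.70, a difference of -1.08, and Mir467d had 1.19 and 0.64. The 2 symbols above 0 were Mir467b with 2.34 and 2.53 and Mir467g with 0.63 and 0.78.

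The 4 Mir297 symbols lay under both limits. Mir297a-3 had 3.29 and 3.06, Mir297c 1.57 and 2.09, Mir297a-4 1.51 and 1.52, and Mir297-1 0.71 and 0.74. The differences ran from -0.23 to 0.52 with a median of 0.02, which lay below 0 under both centrings, loess and quantile normalization (-0.20 to -0.06). No fold is given for any of them.

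**Figure D2:**
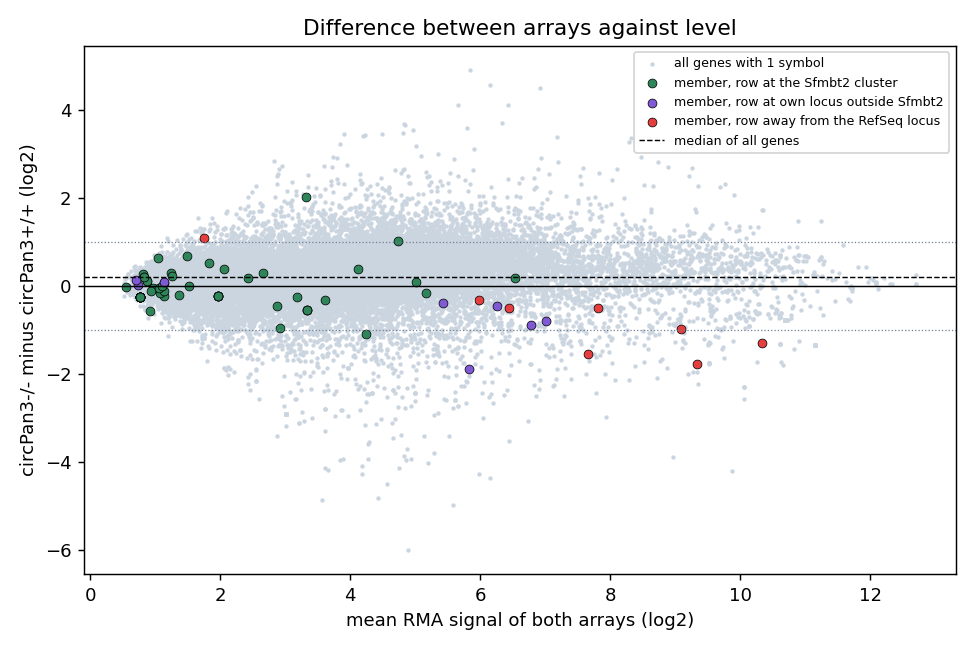
Difference between the arrays (circPan3-/- minus circPan3+/+, log2) against the mean signal of both arrays (log2) for all 30145 genes with 1 symbol (grey) and the 76 members, coloured by where their row lies; the dashed line is the median of all genes, 0.21, and the dotted lines mark 2-fold. Of the 11 members above both limits, Mir466f-1 alone lies above 0, at 0.18, and below the line of all genes.

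Many copies could not be told apart. The 76 symbols held 55 distinct pairs of values: 28 symbols fell into 7 sets whose values were equal on both arrays as deposited. The largest set was 9 copies of Mir669a, Mir669a-4 to Mir669a-12, which had 0.89 on the circPan3+/+ and 0.63 on the circPan3-/- array. The 5 copies Mir466b-1 and Mir466b-4 to Mir466b-7 had 1.14 and 1.07. Mir467a fell into 2 sets: Mir467a-1, Mir467a-4, Mir467a-5, Mir467a-7 and Mir467a-8 had 2.08 and 1.86, and Mir467a-3, Mir467a-6 and Mir467a-10 had 3.60 and 3.07. The pairs were Mir466c-1 with Mir466c-2, Mir669p-1 with Mir669p-2, and Mir466b-8 with Mir466e, a pair that crosses the letters. All 7 sets lay under both limits, and a set counts as 1 measurement rather than as several.

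On the circPan3+/+ array equal values were not limited to copies: that of the 9 Mir669a copies stood in 1416 rows. On the circPan3-/- array it stood in 9 rows, which are the 9 copies. The value of the Mir466b set stood in 733 rows of the circPan3+/+ array and 6 of the circPan3-/- array. Of the 76 members, 52 had a circPan3+/+ value that another row also held and 29 a circPan3-/- value that another row held. The 24 members with neither had a median difference of -0.44, with 19 below 0 and 5 above, 5 at least 2-fold lower (20.8%) and 2 at least 2-fold higher (8.33%). Of all genes with 1 symbol, 30.8% were below 0, 2.74% at least 2-fold lower and 5.98% higher. Shares over all genes with unshared values were not computed. These 24 were also brighter, with 41.7% above both limits against 14.5% of the 76. Rows away from the locus of their symbol, described below, were among them.

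Not every row lay at the locus of its name. The array's row names carry a chromosome, and for 99.6% of 30406 rows that could be placed it was the chromosome of the symbol's RefSeq gene. It was so for 95.4% of 521 rows of other microRNA precursors and for 88.5% of the 87 member rows, where 10 rows carried another chromosome. Within the cluster in Sfmbt2 the row numbers followed the RefSeq order in 65 of 66 adjacent pairs of rows, and 1 row of Mir466d lay outside that cluster by its number. These 11 rows are called displaced here, since their names place them elsewhere than the RefSeq locus of their symbol. What transcript they measure was not tested. Of them, 8 were above both limits, against 2 of the 67 rows in the Sfmbt2 cluster and 4 of the 9 rows at loci elsewhere. A displaced row represented 8 of the 76 symbols, 7 of them among the 11 above both limits; Mir466o had no other row with 1 symbol.

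The single-symbol genes nearest by number to the 11 displaced rows, on either side, numbered 22 and stood 1 to 7 steps away. Of these 22, 7 had a difference below 0 and 15 above, with a median of 0.16. The row of Mir669e carried chromosome 8 and stood next to that of Msr1, a macrophage scavenger receptor gene, which had 5.44 on the circPan3+/+ and 2.49 on the circPan3-/- array; on its other side lay Gm23128 with 2.46 and 2.68. The row of Mir669m-2 carried chromosome X, between the predicted genes Gm14706, with 4.67 and 4.91, and Gm5398, with 3.33 and 3.24. That of Mir467f carried chromosome 18, nearest by number to Lox, which encodes a collagen cross-linking enzyme and had 4.25 and 2.55, and to Ppic, a cyclophilin gene, with 5.55 and 4.41. The row of Mir466f-3 carried chromosome 14, 7 steps from Lrch1, with 4.48 and 5.18, and 2 from Lrrc63, with 1.41 and 1.47. Tmx1, with 5.67 and 6.43, lay 2 steps from the row of Mir466o on chromosome 12. Osbp, with 6.10 and 6.80, lay 1 step from that of Mir466f-1 on chromosome 19. Whether these rows share a transcript with the genes nearest to them was not tested.

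**Figure D3:**
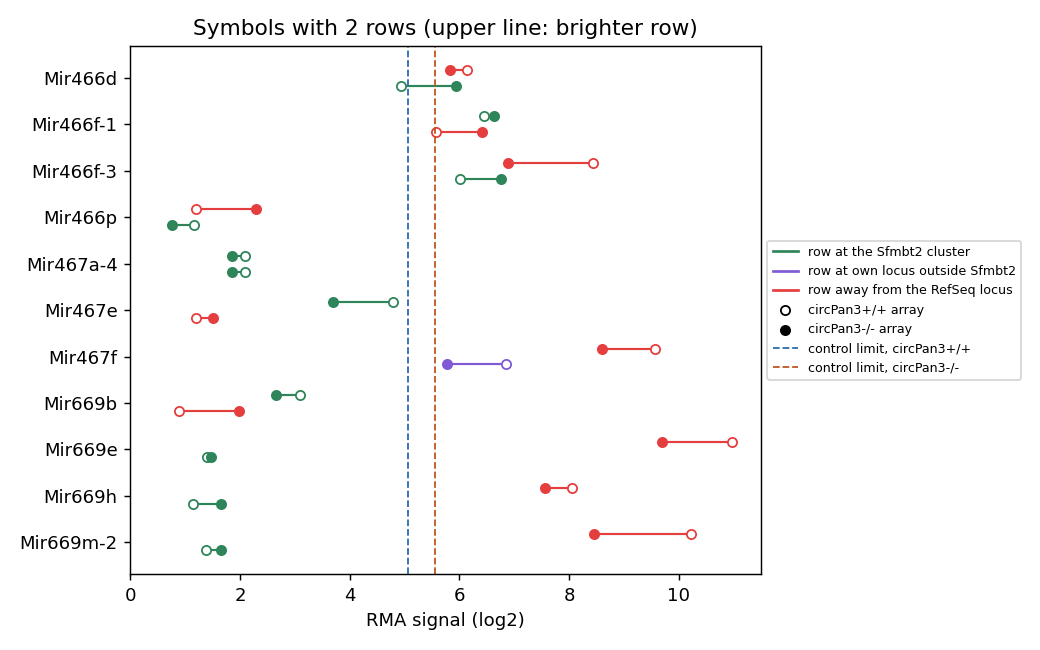
RMA signal (log2) of both rows of each of the 11 symbols with 2 rows, open points for the circPan3+/+ and filled points for the circPan3-/- array, coloured by where the row lies, with the control limits dashed. For Mir669e, Mir669h and Mir669m-2 the row away from the RefSeq locus lies above the limits and the row in the Sfmbt2 cluster, between 1.14 and 1.66, lies under them.

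The 2 rows of a symbol often disagreed. For Mir669e the row in the Sfmbt2 cluster had 1.40 on the circPan3+/+ and 1.47 on the circPan3-/- array, for Mir669h it had 1.14 and 1.65, and for Mir669m-2 1.38 and 1.66. These 3 rows were under both limits and gave differences of 0.07, 0.51 and 0.28, so the lower levels named above for these symbols came from displaced rows only. For Mir466f-3 the row in the cluster was above both limits and went the other way, with 6.01 and 6.76, a difference of 0.74 against -1.55 in the displaced row. For Mir466d the row in the cluster had 4.93 and 5.93, a difference of 1.01 against -0.31. Other symbols had rows that went the same way. Both rows of Mir466f-1 were higher as deposited (0.18 and 0.85), and those of Mir467a-4 were equal. For Mir467f the row at its own locus on chromosome 11 had 6.84 and 5.77, a difference of -1.07 or 2.10-fold, and thus went the same way as the displaced row. The second rows of Mir466p (1.16 and 0.75), Mir467e (1.19 and 1.51) and Mir669b (0.89 and 1.98) lay under both limits. They went the other way than the brighter rows, with differences of -0.40 against 1.10, 0.31 against -1.08 and 1.10 against -0.44. For Mir466p the brighter row is the displaced one.

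With displaced rows left out, 75 symbols remained, of which 6 were above both limits: Mir466f-1 and Mir466f-3 in the Sfmbt2 cluster, which were higher in circPan3-/- cells, and Mir466f-4, Mir466j, Mir467f and Mir467h elsewhere, which were lower. The count at least 2-fold lower was then 3 (Mir466k, Mir467e and Mir467f) instead of 5, or 4% against 2.74% of all genes, and 3 were at least 2-fold higher (Mir466d, Mir466h and Mir669d-2), or 4% against 5.98%. With bounds 2 were lower (Mir466k and Mir467f) and 0 higher. The median over 75 symbols was -0.11.

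**Figure D4:**
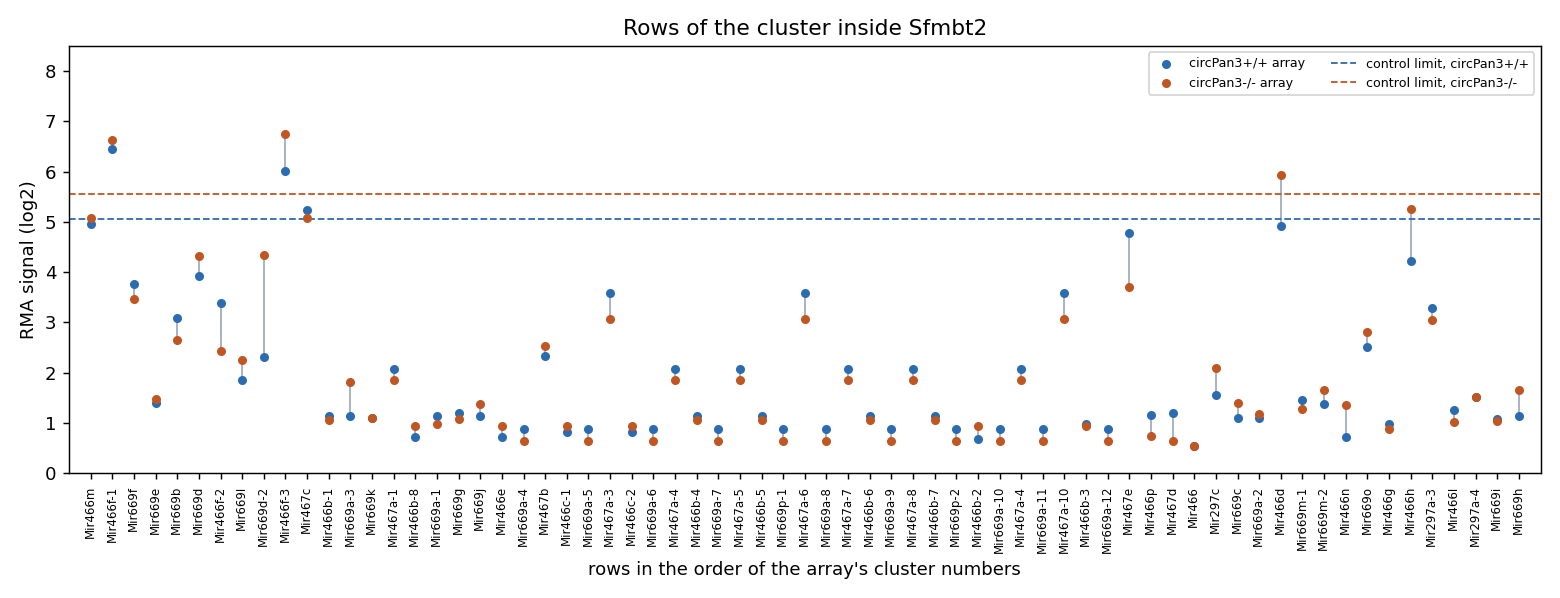
RMA signal (log2) of the 67 rows in the Sfmbt2 cluster on both arrays, in the order of the array's cluster numbers, with the control limits of 5.06 and 5.56 dashed. Mir466f-1 and Mir466f-3 lie above both limits and Mir466d above that of the circPan3-/- array, all 3 higher there, while 63 rows lie under both limits.

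In the Sfmbt2 cluster itself, 63 of 67 rows lay under both limits, and the median difference was -0.08. Sfmbt2, the host gene, also lay under both, with 1.94 and 2.37, a difference of 0.44. The rows above at least 1 limit were Mir466f-1, Mir466f-3, Mir466d and Mir467c, and of these Mir467c alone had a difference below 0, at -0.15. Outside the cluster, rows at their own loci that were above both limits numbered 4, all with differences below 0, from -1.07 to -0.44. The host and most copies in its cluster thus gave no level above the controls, and for these a difference was not detectable.

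A second kind of background bears on the same values. The table holds 23 rows of background probes with known numbers of G and C, whose levels rise with that number. The hairpin of Mir466k has a G and C share that corresponds to 9 in a probe of 25 bases, where the background row stood at 0.63 on the circPan3+/+ and 0.65 on the circPan3-/- array. Mir466k lay 6.13 and 4.23 above these. Mir467h lay 5.85 and 5.42 above its background row and Mir669n 4.90 and 4.35, whereas Mir297-1 lay 0.08 and 0.12 above. By this measure Mir466k was above the background row of like G and C on both arrays, although its circPan3-/- value lay within the range of the negative controls. The array's own probe sequences were not used here, so the match is by hairpin only. It covers the number of G and C, not the runs of UGUG or ACAC. Whether other RNA with such runs adds to these values was not tested.

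Of 22 genes of the microRNA pathway that were listed, 18 had a row with 1 symbol. Their median difference was 0.43, against 0.21 for all genes. Under both limits lay 10 of the 18. The 6 above both had a median of 0.69, where that of all genes above both was 0.42. As deposited, with the shift of all genes included, 2 passed 2-fold upwards and 0 downwards (5.98% and 2.74% of all genes). Drosha, the nuclear enzyme that cuts hairpins from the primary transcript, had 5.26 and 6.34, or 2.11-fold higher, and Srsf3, a splicing factor that also recognises precursors, had 5.67 and 7.08, or 2.66-fold higher. Tut7, a uridylyl transferase acting on precursors, had 5.63 and 6.49, a difference of 0.85. Dicer1, which releases the mature strand, had 4.91 and 5.69, a bound of 1.55-fold, and Ago2, which binds it, had 6.04 and 6.41. Lin28a, an inhibitor of let-7 processing, had the lowest difference, at -0.04, under both limits, followed by Ran, which serves nuclear export, at 0.03.

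Of 26 listed precursors of intestinal microRNAs, 16 had a row with 1 symbol, and 15 of them lay under both limits. Mir215 alone was above a limit, that of the circPan3+/+ array, with 5.19 and 5.05. Both values of the following lay within the control range, so they have no fold. The differences furthest below 0 were those of Mir31 (2.70 and 1.63, or -1.07), Mir200c (-0.88) and Mir200b (-0.38). Those furthest above 0 were those of Mir34b (0.86), Mir194-2 (0.62) and Mir7-1 (0.50). Of the members of the Mir466, Mir467, Mir669 and Mir297 families 62 of 76 lay under both limits. A precursor signal within the control range does not show that the mature strand is absent.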

How the data were processed

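Total RNA of 1 circPan3+/+ and 1 circPan3-/- sample was profiled on arrays. The authors ran RMA in Affymetrix Power Tools, per the submitters' processing notes, which name no version; the build was not given in the sources used here. Deposited values, 72688 rows from -0.18 to 13.07, are on a log2 scale, taken from their range because the table states no unit. RMA corrects no probe for G and C content. The number of arrays limits the precision that can be stated.

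Rows were named from the platform annotation of the probes: 30604 had 1 distinct symbol, 2146 several and 33020 transcript clusters none. RefSeq (GRCm38.p6) gave gene order and chromosome; strand was not used for the Sfmbt2 cluster. Members and gene lists were chosen with earlier results of these data known. Members named are those above a limit on at least 1 array and the sets of equal values. Also named are the 3 highest and 3 lowest differences of each family, with up to 3 genes in each direction of each list. Dicer1, Ago2 and the genes nearest to displaced rows were chosen after seeing the values. Since each genotype has 1 array, differences were described by size (at least 2-fold). A fold is given as a bound where the lower of both values is under its limit, and not at all where both are or where the brighter does not exceed that limit. Alternatives were centring, loess (span 0.3), quantile normalization, row means, other thresholds, percentiles and filters; rows at the RefSeq place only, and the median over distinct values, were added after seeing the data. Functions were tested on simulated data (Python 3.11.15, numpy 2.4.6, pandas 2.3.3, statsmodels 0.14.6).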

Additional observations from a re-analysis of the deposited data

How the results depend on the processing

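No paired analysis was possible because each genotype has 1 array, and no sample could be left out. The median difference of the 76 members, -0.21, stayed below 0 under every alternative run: -0.42 centred on all genes, -0.34 centred on other precursors, -0.31 with loess, -0.30 with quantile normalization, -0.13 with the rows of a symbol averaged, -0.48 at or above the median level, -0.44 for values shared with no other row, -0.16 as a mean, and -0.11 both with rows at the RefSeq place only and, as an alternative added after seeing the data, with 1 symbol per set of equal values. The count at least 2-fold lower, 5, became 8 with either centring, 9 with loess, quantile normalization or the 1.5-fold threshold, 2 with row means and 3 with rows at the RefSeq place. The count at least 2-fold higher, 3, became 1 with either centring or quantile normalization and 5 at 1.5-fold. It became 2 with loess or row means. It was also 2 among the 27 members at or above the median level and among the 24 with values shared with no other row. With bounds the 4 lower became 6 with either centring (1.22% and 1.06% of all genes) and 7 with loess or quantile normalization (1.61% and 1.35%). They became 2 with row means (0.826% of all genes), with rows at the RefSeq place or with the 99th percentile of the controls (0.305%). The 0 higher with bounds became 1 with the 90th percentile, against 3.51% of all genes. Members above both limits, 11, became 6 with rows at the RefSeq place, 16 with the 90th percentile and 3 with the 99th percentile. Of all genes, 4.09%, 3.51%, 4.53% and 4.40% were at least 2-fold lower with the 2 centrings, loess and quantile normalization, and 6.53% were lower at 1.5-fold. The shares higher were 3.18%, 3.99%, 2.40% and 2.64%, and 20.6% at 1.5-fold. With row means, 2.73% of all genes were at least 2-fold lower and 5.95% higher. Mir466f-1 (0.18 as deposited) ran from -0.26 to 0.52, Mir466d from -0.76 to 0.35 and Mir669h from -0.87 to 0.01 over the scalings and row means. The cause of these changes was not tested, beyond what fewer rows or a subtracted median do by construction. Signal over background is a limit: 62 of 76 members had no value above the control limits.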
